A study of Mus musculus with 2 samples.

Results

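Flavin-containing monooxygenases are enzymes of the endoplasmic reticulum that use FAD and NADPH to add an oxygen atom to nitrogen or sulfur in drugs, dietary amines and some of the cell's own metabolites. Fmo1, best known from liver and kidney, oxidizes many foreign amines and thioethers and can make taurine from hypotaurine. Fmo1, Fmo2, Fmo4 and Fmo5 are described here, which are 4 of the 31053 genes in the deposited tables and 4 of the 7 Fmo genes among them. Fmo1 was chosen by its difference between the libraries in beta cells, the largest among well-expressed genes, so that difference is given below as a description. Fmo2, Fmo4 and Fmo5 were added as the other family members with more than 1 molecule counted.

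Islets came from wild-type C57BL/6J female mice that were 9 weeks old at the start. The multipara group had given birth 3 times in a row and was studied 3 weeks after the last delivery, and the virgin group consisted of littermates of the same age. Freshly collected islets were kept for a short time in serum-containing medium, dissociated with 0.25% trypsin and made into 1 single-cell library per group with 10x Chromium 3′ chemistry, which gives each captured RNA molecule a unique molecular identifier (UMI). The labels do not give the number of mice in a library. The paper's figure legend gives an n of more than 1 per group for the single-cell data. With 1 library per group the spread between animals is unknown and no test between groups was run, and the 95% intervals below cover counting error only.

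The virgin library held 5463 barcodes and 94853806 UMIs and the multipara library 5075 barcodes and 82503776 UMIs. After the cell filter and removal of doublets, 4330 and 3330 cells remained, or 79.3% and 65.6% of the barcodes. The libraries shared 7 barcodes. Beta-like cells, named from markers such as Ins1, Ins2, Iapp and Ucn3, numbered 1700 virgin and 1420 multipara cells, and each of their clusters had at least 11 of the 12 beta markers among its leading genes. Their median depth was 30157 and 33516.5 UMIs per cell. Levels are given as CPM, the UMIs of a gene per 1000000 UMIs of the cell class.

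The family shares its first stretch of protein, which holds the glycine-rich motif that binds FAD. The first 60 coding bases of the principal transcripts in GENCODE M21 (GRCm38) are shown to let the members be compared at the site of their shared cofactor, with the 6 codons of the motif G-x-G-x-x-G in capitals. They lie at chr1:162859497-162859556 for Fmo1, chr1:162898246-162898305 for Fmo2, chr1:162809862-162809921 for Fmo4, all on the minus strand, and chr3:97629061-97629120 on the plus strand for Fmo5.
Fmo1: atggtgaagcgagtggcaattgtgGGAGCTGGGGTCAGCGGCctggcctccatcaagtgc
Fmo2: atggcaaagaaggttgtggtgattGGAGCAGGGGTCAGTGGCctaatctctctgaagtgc
Fmo4: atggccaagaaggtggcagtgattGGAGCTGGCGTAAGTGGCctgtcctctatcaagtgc
Fmo5: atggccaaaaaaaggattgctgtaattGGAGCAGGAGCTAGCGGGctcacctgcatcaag

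Over the whole coding sequence the members were 59.3% (Fmo1 and Fmo5) to 62.6% (Fmo2 and Fmo4) identical at aligned bases. No stretch of 31 bases was shared between any 2 of these transcripts, so reads of that length without errors can be told apart. Fmo4, Fmo1 and Fmo2 follow each other on chromosome 1 at 162793188 to 162813972, 162829561 to 162866610 and 162874317 to 162898726, and Fmo5 lies on chromosome 3 at 97628804 to 97655282. No annotated gene overlaps any of these 4.

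In beta-like cells Fmo1 was at 22.8 CPM (21.4 to 24.1, 1120 UMIs) in virgin and 91.6 CPM (88.8 to 94.4, 4141 UMIs) in multipara cells. The multipara level was 4.02-fold that of the virgin library, a log2 ratio of 2.01 (1.91 to 2.10), and among the 13726 genes that had 10 UMIs or more the median was -0.10. By CPM Fmo1 went from place 2972 to place 579 among these genes. The rule was applied here to the 1228 genes averaging 50 CPM or more over both libraries. Of these, 10 were at least 1.5-fold higher in the multipara library. Fmo1 passed the limit of 50 CPM only through its multipara level, and its virgin level of 22.8 CPM was below it. Behind Fmo1 (mean 57.2 CPM) came Nupr1, a stress-induced chromatin protein, with a log2 ratio of 1.48, and Hmgcs1, an enzyme of cholesterol synthesis, with 1.03. Of genes near the limit of 50 CPM, C1qa (51.4 CPM) was just inside with a log2 ratio of 0.84, and Fdps (46.3 CPM) and Trp53inp1 (41.3 CPM) were just outside with 0.66 and 0.67.

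The share of beta-like cells with at least 1 Fmo1 UMI was 28.9% (491 of 1700, 26.7 to 31.1) in virgin and 62.7% (891 of 1420, 60.2 to 65.3) in multipara cells. To compare cells at the same depth, each cell was thinned at random to 5500 UMIs, and the 150 virgin and 87 multipara cells below that depth were set aside. The shares were then 9.42% (146 of 1550, 8.01 to 10.98) and 29.8% (397 of 1333, 27.3 to 32.3). Alpha-like cells, which make glucagon, served as a background. Their Fmo1 can be free RNA in the droplets or their own, and these were not told apart. Thinned in the same way, 0.915% (9 of 984) and 2.04% (13 of 638) of alpha-like cells had Fmo1, at median depths before thinning of 16402 and 17523 UMIs. The beta-like shares lay above this background in both libraries.

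**Figure D1:**
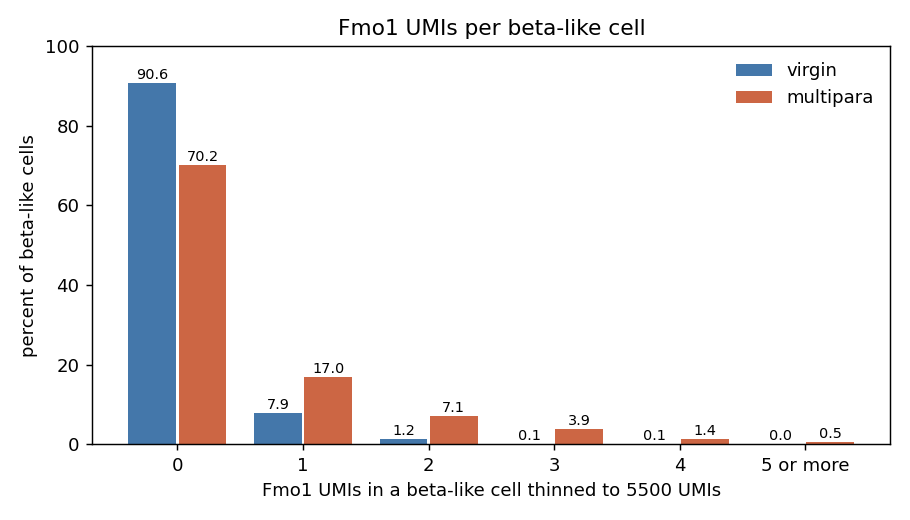
Percent of beta-like cells (y axis) with 0 to 5 or more Fmo1 UMIs (x axis) after each cell was thinned to 5500 UMIs, in the virgin (blue, 1550 cells) and multipara (orange, 1333 cells) library. Cells with no Fmo1 UMI were 90.6% and 70.2%, and cells with 2 UMIs 1.23% and 7.05%.

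Fmo1 was unevenly spread over beta-like cells. Cells with Fmo1 held 2.28 UMIs of it on average in virgin and 4.65 in multipara cells, and the highest counts in a cell were 14 and 57. Thinned to one depth, the variance over the mean was 1.31 in virgin and 1.91 in multipara cells, where random sampling from equal levels gives a ratio near unity. The cells without Fmo1 were 70.2% of thinned multipara cells, against 59.7% under a Poisson distribution with the same mean. In the virgin library these shares were 90.6% and 89.3%. In the thinned multipara cells, the tenth of cells with most Fmo1 held 56.0% of its UMIs.

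All 4 beta-like clusters had more Fmo1 in the multipara library. Their levels were 16.5 to 32.4 CPM in virgin and 52.3 to 126.5 CPM in multipara cells, so the lowest multipara cluster lay above the highest virgin one. The order of the extremes was the same in both libraries. The cluster with most Fmo1 had the lowest median mitochondrial share (3.30% and 2.94%) and the cluster with least had the highest (5.64% and 5.59%).

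That relation held across cells. When beta-like cells of both libraries were put together and divided by their mitochondrial share into 5 bins of equal size, Fmo1 went from 42.4 CPM in the bin with the lowest share to 7.19 CPM in that with the highest in the virgin library. In the multipara library it went from 153.3 to 35.2 CPM. Each step toward a higher mitochondrial share had a lower level in both libraries. The log2 ratio between the libraries was 1.70 to 2.29 inside the 5 bins, beside 2.01 over all beta-like cells. Whether the mitochondrial share has a part in the difference between the libraries was not tested. In 5 bins by UMIs per cell, the virgin level was 15.2 CPM in the shallowest and 32.1 CPM in the deepest, and the multipara level was lowest at 62.8 CPM and highest at 113.2 CPM. Inside these bins the log2 ratio was 1.82 to 2.56, highest in the shallowest bin.

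**Figure D2:**
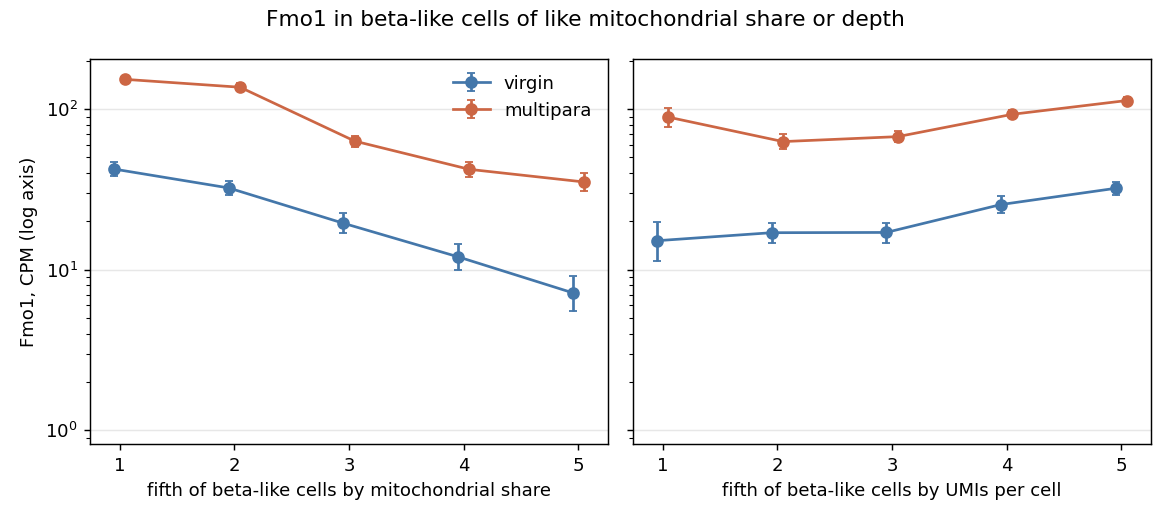
Fmo1 in CPM (log y axis) in beta-like cells of the virgin (blue) and multipara (orange) library, by bins of equal size of mitochondrial share (left, low to high) and of UMIs per cell (right, low to high), with exact Poisson 95% intervals. The level falls from 42.4 to 7.19 CPM (virgin) and from 153.3 to 35.2 CPM (multipara) with the mitochondrial share, and the multipara line lies above the virgin line in every bin.

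Outside beta-like cells, Fmo1 was found mainly in endothelial-like cells and, in the virgin library, in fibroblast-like cells. Endothelial-like cells had 65.0 CPM (52.5 to 79.5, 94 UMIs in 267 cells) in virgin and 60.5 CPM (49.0 to 73.9, 96 UMIs in 240 cells) in multipara cells. Their log2 ratio was -0.10 (-0.53 to 0.32). Fmo1 was chosen by its beta-like ratio of 2.01, and the difference between the classes was not tested. Insulin transcripts from beta cells were present there too, and Ins2 stood at 1.76% and 3.68% of its beta-like level, whereas Fmo1 stood at 285.5% and 66.1%. How much of the endothelial Fmo1 is beta cell RNA was not tested. Fibroblast-like cells had 45.8 CPM (29.0 to 68.7, 23 UMIs in 64 cells) in the virgin library, and the multipara library held only 6 such cells.

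Alpha-like cells had 1.09 CPM (19 UMIs) in virgin and 2.54 CPM (30 UMIs) in multipara cells, with a log2 ratio at 1.22 (0.35 to 2.13). Fmo1 was at 4.78% and 2.77% of its beta-like level there, and Ins2 at 1.89% and 1.90%. Delta-like cells, which make somatostatin, had 1 virgin UMI in 363 cells and 14 multipara UMIs in 310 cells, and the log2 ratio of 4.13 has an interval from 1.42 to 9.53. Fmo1 was at 1.02% and 4.46% of its beta-like level in delta-like cells, and Ins2 at 4.48% and 4.16%. How much of the delta-like Fmo1 is beta cell RNA was not tested. The delta-like level depended on how cells were kept and clustered, at 0.206 to 4.40 CPM in the virgin and 3.77 to 11.7 CPM in the multipara library over 7 alternatives. A cluster led by Sst and Chgb that carried other hormones as well was left unnamed, and it had 8.48 CPM (38 UMIs) and 23.7 CPM (53 UMIs). In that cluster Fmo1 was at 37.3% and 25.9% of its beta-like level, and Ins2 at 49.6% and 51.2%. Both alpha-like and delta-like levels were far below those of beta-like cells. No Fmo1 UMI was seen in 151 virgin T cell-like cells, which allows a level of up to 5.01 CPM, in 43 multipara ones (17.0 CPM) or in 143 virgin B cell-like cells (6.05 CPM). These cells are shallow, so the zeros limit the level and not the share of cells that express the gene. Of all Fmo1 UMIs in kept cells, beta-like cells gave 85.7% (83.7 to 87.5) in virgin and 94.7% (94.0 to 95.4) in multipara cells, and endothelial-like cells 7.19% and 2.20%.

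Among classes with at least 10 Fmo1 UMIs, the virgin order by level was endothelial-like, fibroblast-like, beta-like, the cluster led by Sst and Chgb, and alpha-like. The first 2 had overlapping intervals, and beta-like cells lay below both without overlap. In the multipara library beta-like cells came first, apart from endothelial-like cells, which were followed by an unnamed cluster of few UMIs per cell led by Gm26917 (44.4 CPM, 24.3 to 74.5, 14 UMIs in 130 cells), the cluster led by Sst and Chgb, delta-like cells and alpha-like cells. The interval of the cluster led by Gm26917 overlapped those of endothelial-like cells and of the cluster led by Sst and Chgb (17.7 to 30.98 CPM), and the delta-like interval overlapped that of alpha-like cells. In the multipara cluster led by Gm26917, Fmo1 was at 48.5% of its beta-like level and Ins2 at 66.8%. How much of its Fmo1 is beta cell RNA was not tested.

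**Figure D3:**
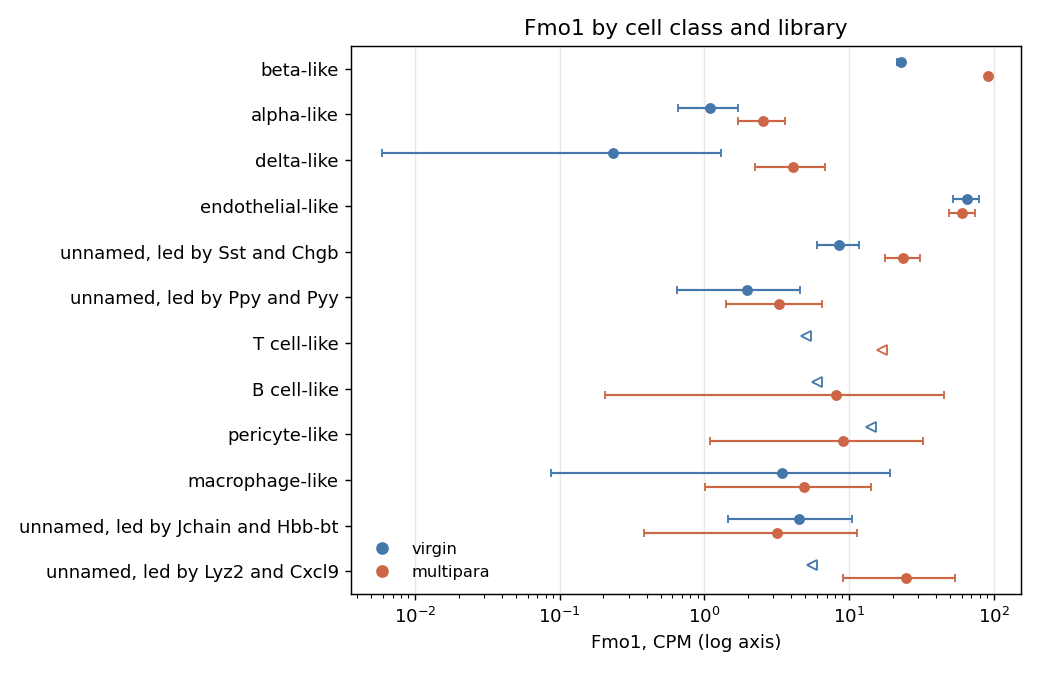
Fmo1 in CPM (log x axis) by cell class (y axis) in the virgin (blue) and multipara (orange) library for classes of 30 cells or more in both, with exact Poisson 95% intervals; open triangles mark the level that 3 UMIs would give in a class where none was counted. Beta-like cells move from 22.8 to 91.6 CPM, while endothelial-like cells are at 65.0 and 60.5 CPM.

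Fmo2, a family member best known from lung, had another distribution. It was highest in fibroblast-like cells, with 254.7 CPM (212.5 to 302.9, 128 UMIs) in the virgin library, and in endothelial-like cells, with 78.8 CPM (65.0 to 94.7, 114 UMIs) and 63.0 CPM (51.3 to 76.7, 100 UMIs). The endothelial log2 ratio was -0.32 (-0.72 to 0.08). In beta-like cells Fmo2 was low, at 1.73 CPM (85 UMIs) in virgin and 4.16 CPM (188 UMIs) in multipara cells, with a log2 ratio at 1.27 (0.89 to 1.65). In thinned beta-like cells 0.839% (0.447 to 1.43) and 2.18% (1.46 to 3.11) had it, against 0.305% of virgin alpha-like cells and none of 638 multipara ones, which allows up to 0.470%. The multipara share in beta-like cells thus lay above the alpha-like background, while the virgin interval overlapped it. Among thinned multipara beta-like cells, Fmo2 was found in 10 of 397 with Fmo1 (2.52%, 1.21 to 4.58) and 19 of 936 without (2.03%, 1.23 to 3.15), intervals that overlap. With so few cells a link between the 2 genes in a cell was not detectable.

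Fmo4, of which little is known, was rare. It had 13 virgin UMIs (0.264 CPM) and 30 multipara UMIs (0.663 CPM) in beta-like cells, a log2 ratio of 1.33 (0.35 to 2.39), and at most 4 UMIs in any other class and library. Fmo5, which differs from the rest in acting mostly on carbonyl compounds, was even between the libraries in beta-like cells, at 1.44 CPM (71 UMIs) and 1.30 CPM (59 UMIs), a log2 ratio of -0.15 (-0.67 to 0.37). Its virgin level was higher in endothelial-like cells (13.8 CPM, 20 UMIs) and in alpha-like cells (5.04 CPM, 88 UMIs). In alpha-like cells the multipara level was 2.37 CPM (28 UMIs), a log2 ratio of -1.09 (-1.76 to -0.46). Fmo5 and Fmo1 thus stood on opposite sides of 0 in alpha-like cells. Fmo6 had 1 UMI and Fmo9 none in all barcodes of both libraries.

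**Figure D4:**
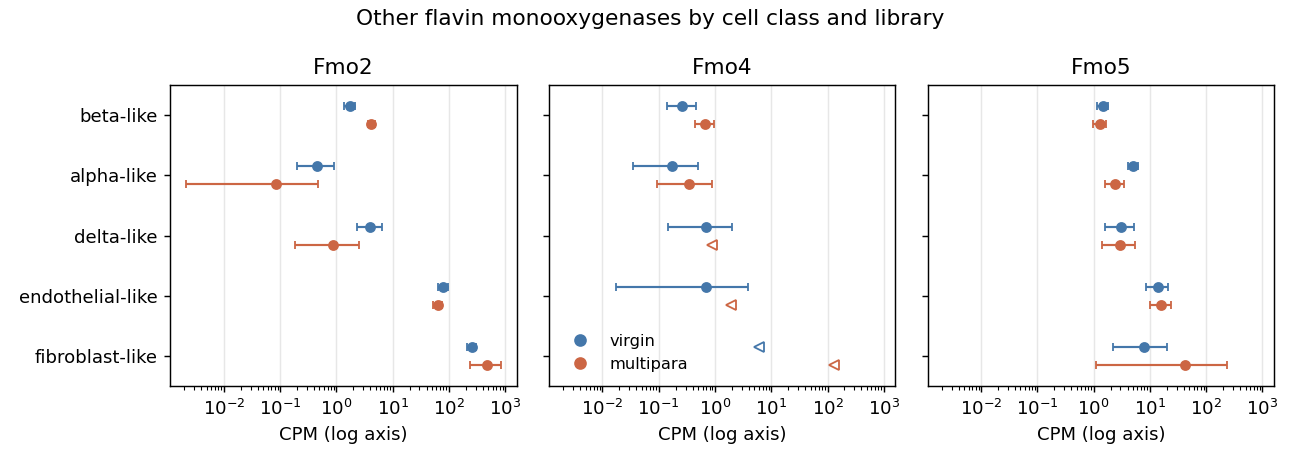
Fmo2, Fmo4 and Fmo5 in CPM (log x axes) in 5 cell classes (y axis) of the virgin (blue) and multipara (orange) library, with exact Poisson 95% intervals; open triangles mark the level of 3 UMIs where none was counted, and the multipara fibroblast-like class has 6 cells. Fmo2 reaches 254.7 CPM in virgin fibroblast-like cells and stays at 1.73 and 4.16 CPM in beta-like cells.

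Of the 4 members, 3 were at least 1.5-fold higher in multipara beta-like cells and none was 1.5-fold lower. Of all 13726 genes, 559 (4.07%) were at least 1.5-fold higher and 1263 (9.20%) at least 1.5-fold lower. Fmo1 is among the 3 by the way it was selected, which leaves Fmo2 and Fmo4, and the interval of Fmo4 reaches below 1.5-fold. The 3 genes with higher levels are next to each other on chromosome 1. Within 500 kb of Fmo1, 14 other genes are listed and 5 had at least 10 UMIs in beta-like cells. Beside Fmo2 and Fmo4 these were Prrc2c, Vamp4 and Mettl13, with log2 ratios of -0.02, 0.12 and -0.10. The left end of Prrc2c, the nearest of them, lies 126 kb from the left end of Fmo1. All 3 were close to the median of all genes.

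Genes that went with Fmo1 in a cell were looked for by correlation of log-transformed UMIs over thinned beta-like cells, within each library, among 3215 genes. These cells share a library, and correlations between sparse counts are weak, so the values describe and are not tested. The highest by the lower of the 2 libraries were Ins1 (r = 0.13 in 1550 virgin and 0.25 in 1333 multipara cells) and Prlr (0.10 and 0.15), the prolactin receptor. No other gene reached 0.1 in both. Pcsk1 (0.09 and 0.11), a protease that processes proinsulin, Tm4sf4 (0.08 and 0.10) and Vstm2l (0.12 and 0.08) followed. The rest of the first 10 were Txnip, Cpe, Calr, Ero1lb and Gadd45b, at 0.06 to 0.16 in either library. Over all 3215 genes, percentile 99 lay at 0.06 in virgin and 0.08 in multipara cells. Thinned Fmo1 also correlated with depth before thinning, at 0.08 and 0.07, a size like that of several of these genes. Prlr and Pcsk1 were among the first 10 in all 7 settings tried and Ins1 and Ero1lb in 6, while Gadd45b was in 2, and another random draw of the thinning kept only 4 of the 10.

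The difference in Prlr was small in size. Thinned cells without Fmo1 had on average 2.29 (virgin) and 2.91 (multipara) Prlr UMIs and cells with it 2.83 and 3.58. For Ins1 the means were 841 and 894 UMIs without and 945 and 994 with Fmo1. The lowest correlations were larger in size and belonged to mitochondrially encoded subunits of the respiratory chain and of ATP synthase and to the ferritin light chain gene Ftl1. They were mt-Co3 (-0.16 and -0.26), Ftl1 (-0.15 and -0.23), mt-Co2 (-0.14 and -0.26), mt-Atp6 (-0.13 and -0.22) and mt-Nd4 (-0.13 and -0.22). In all, 11 genes were at -0.1 or less in both libraries. The median mitochondrial share of thinned multipara cells was 4.45% with no Fmo1 UMI, 3.31% with 1, 2.88% with 2 and 2.82% with 3 or more. In the virgin library it was 4.27% with none and 3.33% with 1. The mitochondrial share also moves with the quality of a dissociated cell, and the part of this in the correlations was not tested.

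Nupr1, next to Fmo1 in the ranking of libraries, did not go with it in a cell. Its correlation was -0.06 in virgin and -0.12 in multipara cells. In the multipara library, 25.6% (172 of 671, 22.4 to 29.1) of thinned cells with Nupr1 had Fmo1, against 34.0% (225 of 662, 30.4 to 37.7) of those without. These intervals did not overlap. In the virgin library the shares were 7.86% (29 of 369, 5.33 to 11.1) and 9.91% (117 of 1181, 8.26 to 11.8), whose intervals did. Over clusters, the multipara cluster lowest in Fmo1 (52.3 CPM) was the highest in Nupr1 (346 CPM), and it also had the highest mitochondrial share. The other stress genes named by the study lay between -0.11 (Atf5) and 0.07 (Sdf2l1) in the multipara library.

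Across the 12 cell classes of sufficient size (24 class profiles, log2 of CPM plus 1), the well-expressed beta cell genes most like Fmo1 were Bace2 (r = 0.69), a membrane protease, and Nupr1 (0.67). Srpr (0.63), Fkbp1b (0.59), Papss2 (0.59), Ttc28 (0.58), Tmed9 (0.58), Hdlbp (0.57), Gng12 (0.57) and P4hb (0.57) followed. Bace2 shared the pattern of classes but not the difference between libraries, with 204.6 and 172 CPM in beta-like cells. Nupr1 had 91.3 and 254.1 CPM in beta-like cells but only 19.4 and 18.3 CPM in endothelial-like cells. With only classes of at least 100 cells, neither Bace2 nor Nupr1 was among the first 10. The profiles also hold the beta-like levels by which Fmo1 was chosen and Nupr1 came next. The classes share libraries and differ in depth, so these correlations only describe.

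Lists of related genes are given next for beta-like cells, to be read against the 4.07% of all genes that were at least 1.5-fold higher and the 9.20% that were at least 1.5-fold lower. At these list sizes, counts of 0 or 1 are near that background. Of 4 measured genes of flavin supply none was past 1.5-fold in either direction (median log2 ratio -0.03). Rfk, which makes FMN from riboflavin, had a log2 ratio of -0.07, Flad1, which makes FAD, had 0.17, and the mitochondrial carrier gene Slc25a32 had -0.29. Of 15 genes of NADPH supply, none was higher and 1 was lower by 1.5-fold (median 0.07). The most abundant were Pgls (0.06), Idh2 (-0.03) and Taldo1 (0.08), and the lower one was Me3 (65 and 33 UMIs, -0.86), named after its value was seen. Of 6 measured genes of taurine synthesis and uptake none was past 1.5-fold, and the taurine transporter gene Slc6a6 was at -0.22, Gad1 at -0.16 and Csad, whose product makes hypotaurine, at -0.03.

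Other enzymes of drug metabolism were counted in the same way. Of 16 measured genes of the cytochrome P450 system none was higher, and Cyp2s1 (16 and 0 UMIs) was past the limit on the low side (median -0.05, beside 4.07% and 9.20% of all genes). The most abundant were Cyb5r3 (-0.18), Cyb5b (0.09) and Cyb5a (0.27), and Por, the NADPH-dependent reductase of the system, was at -0.06. Of 12 conjugating and hydrolysing enzymes none was higher and Ephx2 (37 and 13 UMIs, -1.39) was lower (median 0.04), with Gstz1 (0.03) and Gstm1 (0.20) among the most abundant. Cyp2s1 and Ephx2 were named after their values were seen.

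Genes tied to transcription factors that respond to foreign compounds or to stress gave counts near or below the same background of 4.07% and 9.20%. None of 4 measured genes of the aryl hydrocarbon receptor list was past 1.5-fold (median -0.35). They were the receptor gene Ahr (-0.31), the gene of its partner Arnt (-0.15) and the targets Tiparp (-0.39) and, close to the limit, Nqo1 (-0.58). Of 12 genes of the NRF2 response, which is set off by oxidants, 1 was higher (median 0.08). It was Slc7a11, the cystine transporter gene, whose log2 ratio was 1.45 (0.93 to 1.996) from 43 and 108 UMIs, while the abundant Prdx1, Gclm and Txnrd1 were at 0.09, -0.21 and -0.07. Of 15 FoxO genes none was higher and Bcl6 (48 and 18 UMIs, -1.29), named after its value was seen, was lower (median 0.10). Txnip was at 0.24, Cited2 at 0.37 and Irs2 at 0.10.

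The last lists hold genes known from the same libraries, from pregnancy or from cholesterol synthesis, again beside 4.07% of all genes at least 1.5-fold higher and 9.20% lower. All 9 stress genes named by the study were above the median of all genes, 2 of them, Nupr1 (1.48) and Fkbp11 (0.74), by at least 1.5-fold (median 0.51), and the study chose this list on these samples. Of 12 pregnancy-linked genes 7 were at least 1.5-fold higher and none lower (median 0.83). They were Matn2 (1.43), Tnfrsf11b (1.29), Cish (0.63) Tph2 (1.02), Lrrc55 (0 virgin and 104 multipara UMIs), Rerg (4 and 96 UMIs) and Tph1, an enzyme of serotonin synthesis (2 and 36 UMIs). The most abundant were Prlr (0.36), Ivd (0.51) and Socs2 (0.19). This list is not independent of the study either. The paper names Lrrc55, Matn2 and Lars2 as raised in bulk RNA of its multipara islets. It reports Rerg only for multipara islets after an insulin receptor antagonist, and not as a pregnancy gene. In beta-like cells here Lars2 was not higher, at -0.13 (-0.23 to -0.02, 1665 and 1402 UMIs). The other 11 genes of this list were above the median of all genes, and Lars2 was below it. Of 18 genes of cholesterol synthesis 2 were higher, Hmgcs1 (1.03) and Fdps (0.66), and none lower (median 0.30), with Msmo1 at 0.47.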

How the data were processed

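The authors deposited raw UMI counts per gene and barcode for each library. Per the submitters' processing notes Cell Ranger 3.1.0, Seurat 3.0 and the build GRCm38 (mm10) were named, and 30934 of 31053 gene IDs were found in GENCODE M21. As in the study, cells needed over 200 genes, under 6000 genes, under 60000 UMIs and a mitochondrial share below 10%. Scrublet (scanpy 1.11.5) removed 61 virgin (1.39%) and 44 multipara (1.30%) cells, so doublets can remain. Both libraries were clustered together without the Fmo genes (2000 variable genes, 30 components, 20 neighbours, leidenalg 0.10.2, resolution 1). Clusters were named from at least 3 listed markers among 50 leading genes. A cluster stayed unnamed where its median cell held more of another hormone or where immunoglobulin genes led it, which were rules written after values were seen. Names are rebuilt, not the authors'.

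UMIs were summed per class. Sums have exact Poisson, shares Clopper-Pearson and log2 ratios conditional binomial 95% intervals. A count of 0 was given the limit of 3 counts. Lists used genes with at least 10 UMIs. Scripts were tested on simulated data. Members, lists and markers were chosen with earlier results of these data known. Alternatives included TMM factors (edgeR 4.0.16). Named genes were the family, genes next to the rule's limits, the 10 highest and 5 lowest per-cell correlations, the 10 most alike class profiles, list genes past 1.5-fold with at least 100 UMIs and the 3 most abundant list members. Some genes of these lists are not reported here.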

Additional observations from a re-analysis of the deposited data

Results flagged for a closer look

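The Fmo2 log2 ratio in delta-like cells stood out because it lay on the other side of 0 from that in beta-like cells. Delta-like cells had 17 Fmo2 UMIs in 7 of 363 virgin cells and 3 UMIs in 2 of 310 multipara cells, a log2 ratio of -2.18 (-4.59 to -0.39), against 1.27 (0.89 to 1.65) in beta-like cells. The ratio was also below 0 in alpha-like cells (8 and 1 UMIs, -2.44, -7.91 to 0.46) and in endothelial-like cells (-0.32). In the cluster led by Sst and Chgb it was -0.68 (16 and 5 UMIs). An unnamed cluster led by Lyz2 and Cxcl9 went the other way (1 and 3 UMIs, 2.75). With 1 library per group the difference between the cell classes was not tested, and in delta-like cells it rests on few UMIs.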

How the results depend on the processing

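No paired analysis was possible because each group has 1 library. Of 243 alternative values, 207 stayed within the counting interval or limit of the value reported and 36 moved. No log2 ratio of a family member in beta-like cells changed sign. The list medians of taurine genes, flavin supply and the P450 system, all close to the median of all genes, did change sign. The Fmo1 log2 ratio in beta-like cells was 1.99 to 2.19 over 13 alternatives, with 2.19 for thinned cells, and that of Fmo2 was 1.05 to 1.41. The share of beta-like cells with Fmo1 followed the depth, at 3.36% and 15.7% (2000 UMIs), 14.2% and 42.4% (10000 UMIs) and 28.9% and 62.7% (no thinning). It was 12.05% and 38.1% with a mitochondrial share under 5%, and 27.3% in the multipara library with the Fmo genes in the clustering. Of the first 10 genes that went with Fmo1 per cell, 6 were kept without thinning, 6 at 10000 UMIs, 3 in cells with few other hormones and 4 in another random draw, an alternative added after seeing the data. Of the first 10 by class profile, 6 were kept with rank correlation and 3 in classes of at least 100 cells. List medians relative to all genes moved to 0.0577 (taurine genes, from -0.0605, each cell weighted equally), and in thinned cells to -0.0570 (flavin supply, from 0.0618), 0.0285 (NADPH supply) and -0.0717 (aryl hydrocarbon receptor list). With at least 100 UMIs per gene they moved to 0.17 (P450 system) and 0.71 (pregnancy-linked genes). The cause of these moves was not tested. TMM scaling put the median of all genes at -0.00330. The Fmo1 level in delta-like cells was 0.206 to 4.40 CPM (virgin) and 3.77 to 11.7 CPM (multipara) over 7 alternatives, and the Fmo5 ratio in beta-like cells went down to -0.69 in thinned cells. Depth limits Fmo4 and Fmo5, with at most 88 UMIs per class and library.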
